A study of Mus musculus with 6 samples.

Results

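Notch signalling in mouse skin was followed through 10 genes, namely the receptors Notch1, Notch2, Notch3 and Notch4, the ligands Jag1, Jag2 and Dll1, the DNA-binding factor Rbpj, and the target genes Hes1 and Hey1. The 10 were a fixed list of symbols, and each was found through the RefSeq accession of its probes on the array; 7 had 1 probe and 3 (Notch1, Notch2 and Rbpj) had 2. All 10 gave a probe well above background on all 6 arrays, among 22822 genes and unnamed transcripts that could be tested. The data were whole skin of 6 male mice of mixed C57Bl6/129Sv background, hybridised to 1-colour Agilent arrays without treatment. The follicles were recorded as in telogen, when hair growth rests, and the stage of each mouse was not tested. In the 3 knockout (KO) mice Sox4, a transcription factor of the SoxC group, had been conditionally deleted in skin, and the 3 wild-type (WT) mice had not lost it. WT replicates 1, 2 and 3 were 20, 19 and 18 weeks old, and KO replicates 1, 2 and 3 were 17, 18 and 16 weeks old. No label names the Cre driver, or says whether WT mice carried Cre or floxed alleles. Nothing states that replicates were processed apart, so p-values measure the spread between these 6 samples.

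Notch receptors are single-pass membrane proteins that are cleaved when a Jagged or Delta-like ligand on a neighbouring cell binds them, which frees an intracellular domain to enter the nucleus. There it joins Rbpj and switches on targets such as the Hes and Hey repressors. In skin the pathway is known for its part in the commitment of epidermal cells above the basal layer and in the upkeep of the hair follicle, while Notch3 is known in the wall cells of vessels and Notch4 in endothelium.

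Because target genes are reached through Rbpj, the 250 bases before the RefSeq start site of these genes (build GRCm38.p6) were searched for TGGGAA, the core of the sequence Rbpj binds, on both strands. Of the 10 genes, 8 were in the promoter table used (Hes1 and Hey1 were not), and 1 of the 8, Rbpj itself, held a match. Among all 32851 promoter windows of this length 21.6% held one, and by gene 24.1% of 27025, so the share among the 10 genes is no more than a description. Of 54 other pathway genes 43 were in the table and 15 had a match in at least 1 window, among them Lfng, a sugar transferase that acts on the receptors, and Hes7, a repressor of the Hes family. The windows of these 3 genes are shown because they carry the letters next to genes measured here, with the match in capitals. In Rbpj (chr5:53590096-53590345, plus strand, the more upstream of its 2 starts) the matches begin 149 and 65 bases before the start, the second on the opposite strand. In Lfng (chr5:140607091-140607340, plus strand) they begin 135 bases before it on the opposite strand and 108 bases before it on the gene's own strand, and in Hes7 (chr11:69120203-69120452, plus strand) the match begins 180 bases before the start on the opposite strand. A match is not a binding site, and the arrays did not measure binding.
Rbpj: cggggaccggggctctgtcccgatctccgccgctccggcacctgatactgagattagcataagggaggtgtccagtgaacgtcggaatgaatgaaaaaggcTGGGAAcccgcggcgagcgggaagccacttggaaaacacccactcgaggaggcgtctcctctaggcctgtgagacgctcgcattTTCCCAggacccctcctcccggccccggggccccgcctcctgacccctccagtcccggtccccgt
Lfng: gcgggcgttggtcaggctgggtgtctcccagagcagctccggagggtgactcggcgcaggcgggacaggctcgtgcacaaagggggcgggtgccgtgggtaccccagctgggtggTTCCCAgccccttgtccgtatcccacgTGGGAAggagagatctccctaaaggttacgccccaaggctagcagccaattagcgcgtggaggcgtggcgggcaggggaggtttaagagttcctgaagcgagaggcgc
Hes7: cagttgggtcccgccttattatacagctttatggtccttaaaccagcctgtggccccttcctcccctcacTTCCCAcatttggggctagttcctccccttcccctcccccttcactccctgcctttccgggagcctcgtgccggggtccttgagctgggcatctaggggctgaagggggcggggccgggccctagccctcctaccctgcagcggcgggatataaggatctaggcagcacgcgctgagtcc

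Levels below are log2 of the processed probe signal minus the 75th percentile of the same array, and differences are KO minus WT on this log2 scale. Levels of different genes come from different probes and are not compared. Between 52.1% and 66.4% of probes on an array were well above background, and saturation was absent; precision is limited by having 3 arrays a group. Sox4 itself was at 0.41, 0.65 and 0.75 in WT replicates 1, 2 and 3, against KO levels of −2.94, −2.88 and −3.05 (difference −3.56, SE 0.13, limma adjusted p = 0.00135), so each KO array lay under each WT array. No source used here says whether that probe covers deleted sequence. Keratinocyte markers bore out the tissue, with all 7 basal and 6 of 7 suprabasal markers tested, the exception being Flg. As libraries that stand apart, KO replicates 1 and 2 had hair shaft marker levels 6.19 and 5.44 log2 units over the WT mean. These are medians over 10 tested of 14 markers, and KO replicate 3 was at −0.10. The hair shaft list also holds Krt27, Krt71 and Krt73, which are keratins of the inner root sheath. Whether KO replicates 1 and 2 were in telogen, as recorded, was not tested. WT replicate 1 had skeletal muscle markers at 1.21, against −0.34 and −0.79 in WT replicates 2 and 3. KO arrays had 1.57 to 2.09 (all 12 markers tested). T and NK cell markers had lower values in KO, with 9 of 9 differences negative (64.1% of all features) and a median difference of −1.10; KO lay under WT without overlap for 8 of 9, next to 11.8% of all features. The median over the 9 was −0.17, −0.0011 and 0.17 on the WT arrays and −0.98, −1.06 and −1.10 on the KO arrays. Their summed signal, most of it from Thy1 (difference −0.07), was 38.6 to 43.1 times the 75th percentile in WT and 32.9 to 33.9 times in KO. Cd3g was the marker called (limma adjusted p = 0.0464), and it was not called with slide as a block or with the replicate block. Their part in the results was not tested.

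None of the 10 Notch genes passed the test in KO skin. Limma with Benjamini-Hochberg adjustment over all 22822 features called 0 of 10, with adjusted p from 0.402 (Hes1) to 0.961 (Notch4), against 0.0219% of features called overall (0.00438% higher and 0.0175% lower in KO). At an unadjusted p under 0.05 there was 1, Hes1, against 11.8% of all features. The median difference over the 10 was −0.11, next to −0.0850 over all features, and 7 of 10 differences were negative, next to 64.1% of all features. The ranges of KO and WT were separate for 3 of the 10 (Hes1, Notch2 and Jag1, each lower in KO), while 19.3% of all features had no overlap, 11.8% had none with KO lower and 7.56% had none with KO higher. The 3 of 10 are set beside these shares as a description only. As this is bulk RNA, fewer cells of a type and less RNA per cell cannot be told apart.

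**Figure D1:**
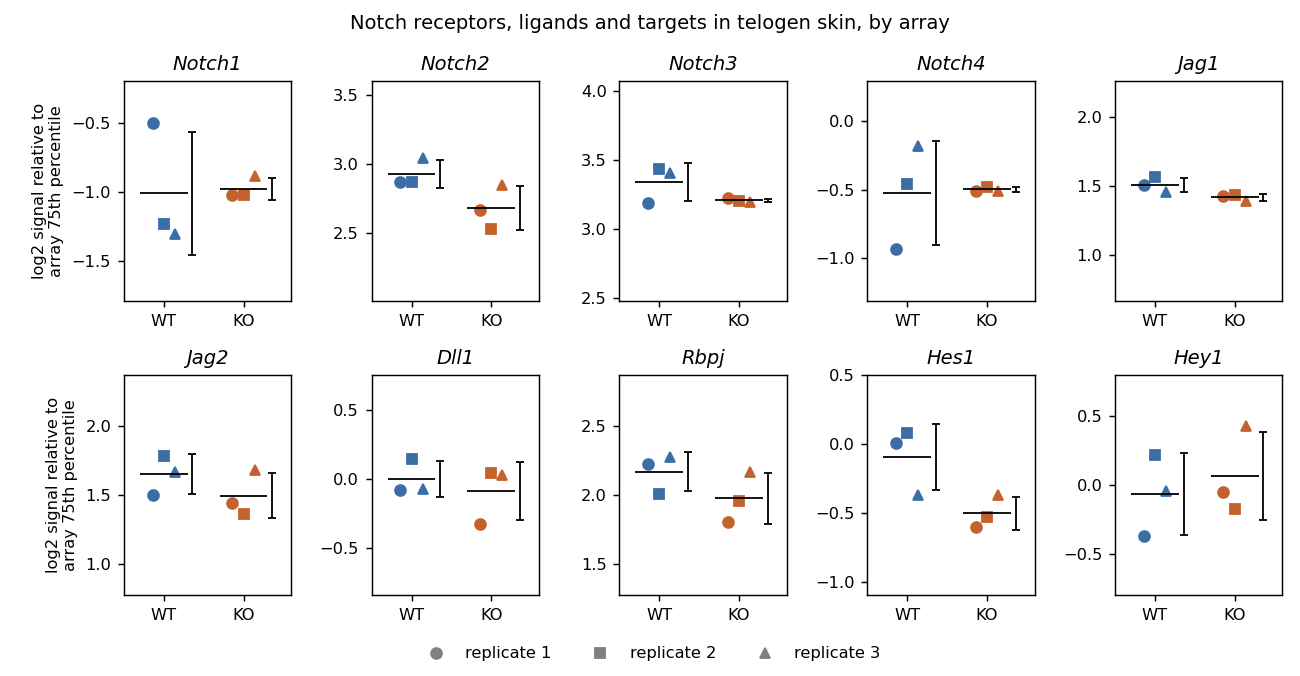
Level of each of the 10 Notch genes on each array (y axis, log2 signal relative to the array's 75th percentile; each panel spans the same height), WT in blue and KO in orange, with the mean as a line and the SD of 3 arrays as a bar. Most panels overlap between groups, and in Notch1 and Notch4 WT replicate 1 stands apart from the other arrays.

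Among the receptors, Notch1, the main receptor of the epidermis, differed by 0.03 between groups (95% interval −0.51 to 0.58). It read −0.50, −1.23 and −1.30 in WT replicates 1, 2 and 3, and −1.02, −1.02 and −0.88 in KO. The KO arrays lay inside the WT range, whose upper end was WT replicate 1 alone. Without that array the difference was 0.29 (limma adjusted p = 0.318), and without WT replicate 3 it was −0.11, so its sign is not settled. The second, dimmer Notch1 probe differed by 0.24 (unadjusted p = 0.371 in limma) and did not share the pattern: WT replicate 1 was the lowest array there, at −3.80, with WT replicates 2 and 3 at −2.96 and −3.71 and KO at −3.18, −3.46 and −3.12.

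Notch2, a receptor that acts beside Notch1 in epidermis and follicle, was the receptor with the lowest KO levels relative to WT. WT read 2.87, 2.87 and 3.04 and KO 2.66, 2.53 and 2.85. The groups did not overlap, by a gap of 0.02 between WT replicate 1 and KO replicate 3. The difference was −0.25 (SE 0.13, 95% interval −0.56 to 0.07, limma adjusted p = 0.495), and the exact two-sided permutation test gave p = 0.1, the smallest that 3 against 3 arrays allow. Its second probe was well above background on 2 WT and 2 KO arrays and was not tested.

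Notch3, the receptor of vessel wall cells, had WT levels of 3.18, 3.43 and 3.40 and KO levels of 3.22, 3.20 and 3.20. WT replicate 1 was level with KO and the other two WT arrays were higher. The difference of −0.13 (95% interval −0.41 to 0.15) was within the WT spread (SD 0.14, n = 3); it was −0.21 without WT replicate 1 and −0.0878 without WT replicate 2. Smooth muscle and pericyte markers, all 7 tested, had a median difference of −0.05, with 4 of 7 negative. Their summed signals, 69.7 to 93.7 times the 75th percentile in WT and 84.7 to 95.6 times in KO, include Des, a gene of skeletal muscle too, with a difference of 1.55 (limma adjusted p = 0.278). Notch4, the endothelial receptor, stood at −0.93, −0.46 and −0.18 on the WT arrays and −0.51, −0.48 and −0.51 on the KO arrays, so that the KO arrays lay together within a wide WT range. Its difference was 0.02 (95% interval −0.45 to 0.50), and −0.18 without WT replicate 1, the lowest array. Endothelial markers, 9 of 9 tested, summed to 35.9 to 40.7 in WT and 34.3 to 38.9 in KO on the same scale, with a median difference of −0.00870.

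The 3 ligands all had negative differences, as did 64.1% of all features (median −0.0850), and none was called. Jag1 had the narrowest interval of the 10 genes. Jag1, a ligand of the follicle and of suprabasal epidermis, had WT levels of 1.50, 1.56 and 1.46 and KO levels of 1.43, 1.43 and 1.39. All KO arrays lay under all WT arrays, but by a gap of only 0.03. The difference was −0.09 (SE 0.10), or 1.07-fold lower, with a 95% interval of −0.34 to 0.15 and an exact permutation p of 0.1. Jag2, a ligand expressed by basal keratinocytes, stood at 1.50, 1.78 and 1.67 on the WT arrays and 1.44, 1.36 and 1.68 on the KO arrays. KO replicate 3 lay among the WT arrays, and the difference was −0.15 (95% interval −0.49 to 0.18). Leaving out WT replicate 2 gave −0.0869, KO replicate 2 −0.0893 and KO replicate 3 −0.25. Dll1, a Delta-like ligand of basal epidermal cells, had WT levels of −0.08, 0.15 and −0.08 and KO levels of −0.33, 0.04 and 0.03. Only KO replicate 1 fell outside the WT range, and the difference of −0.08 (95% interval −0.44 to 0.28) became 0.04 without that array, −0.00667 without WT replicate 2, −0.15 without KO replicate 2 and −0.14 without KO replicate 3. Basal keratinocyte markers, all 7 tested, had a median difference of −0.21 with 0 of 7 called, and their summed signal was 925 to 1379 times the 75th percentile in WT and 940 to 982 times in KO. Their part in the ligand values was not tested.

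Rbpj, the factor through which all 4 receptors act, stood at 2.23, 2.01 and 2.27 on the WT arrays and 1.80, 1.95 and 2.17 on the KO arrays. WT replicate 2 lay among the KO arrays. The difference was −0.19 (SE 0.14, 95% interval −0.54 to 0.15, limma adjusted p = 0.580), and the second, dimmer probe gave −0.09. Without KO replicate 1 the difference was −0.11, and without KO replicate 3 it was −0.29.

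Hes1, a repressor that keeps cells from differentiating too early and is the best known Notch target in epidermis, had the largest difference of the 10. It had WT levels of 0.01, 0.08 and −0.37 and KO levels of −0.61, −0.53 and −0.37. WT replicate 3 and KO replicate 3 were nearly level, 0.000987 apart, so the absence of overlap rests on that small gap and was lost, as for Jag1, when arrays were centred on their median. The difference was −0.41 (SE 0.16), or 1.33-fold lower, with a 95% interval of −0.79 to −0.03 that is not adjusted for the number of features; the unadjusted p was 0.0380, the limma adjusted p 0.402 and the exact permutation p 0.1. Hey1, a related target known in vessels and in the dermal papilla, pointed the other way. It stood at −0.37, 0.22 and −0.04 on the WT arrays and −0.05, −0.17 and 0.43 on the KO arrays, with most arrays of both groups interleaved. The difference was 0.13 (95% interval −0.40 to 0.66), and it was −0.02 without WT replicate 1 and −0.05 without KO replicate 3. Dermal papilla markers (6 of 7 tested, Corin not) had a median difference of 0.14. They were split, with 3 positive and 3 negative, from −0.45 (Prlr) to 0.77 (Lef1).

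**Figure D2:**
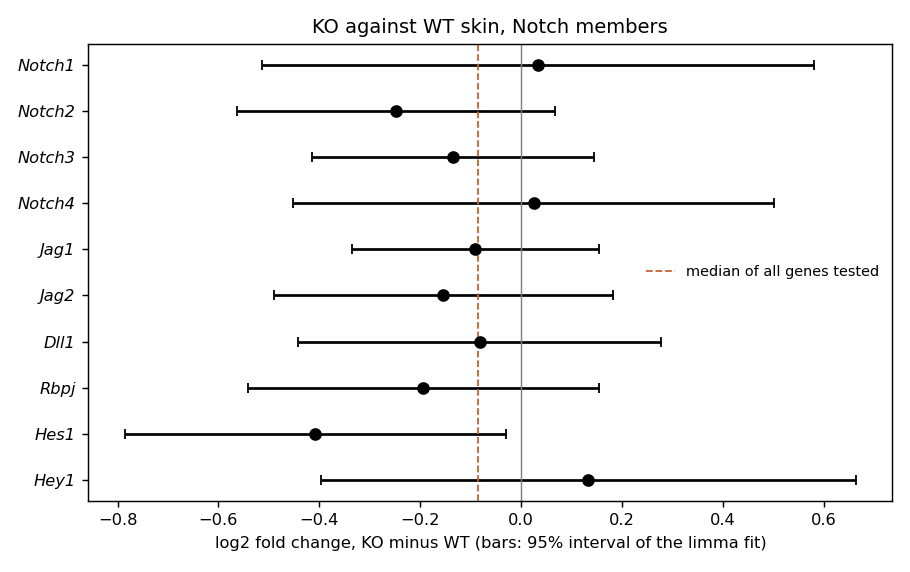
KO minus WT difference of each Notch gene (x axis, log2) with its 95% interval from the limma fit, beside the median of all features (dashed line, −0.09). The interval of Hes1, −0.79 to −0.03, alone leaves out 0 before adjustment.

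Arrays came from 3 slides, of which slide 1 (WT replicate 1, KO replicate 3) and slide 2 (WT replicates 2 and 3, KO replicate 1) held both groups and slide 3 held KO replicate 2. Differences on slide 1 rest on KO replicate 3 and those on slide 2 on KO replicate 1. Hair shaft markers stood at −0.10 and 6.19 on these arrays, so slide and KO array cannot be told apart. Of the 10 differences, 5 were negative on slide 1 and 9 on slide 2 (the share over all features was not computed by slide). On the 2 slides 6 of the 10 differences had opposite signs. Their median was −0.00433 on slide 1 and −0.24 on slide 2, next to 0.02 and −0.11 over all features. Hes1 was lower on both slides, by −0.38 and −0.46, and with slide as a block its difference was −0.43 (limma adjusted p = 0.668). Notch2 gave −0.02 and −0.29 (−0.18 with the block) and Jag1 −0.12 and −0.08 (−0.09 with the block). Rbpj gave −0.06 and −0.34 (−0.22 with the block). Hey1 differed by 0.80 on slide 1 and −0.14 on slide 2, and Notch1 by −0.39 and 0.24, so their pooled values average opposite signs. Notch4, Jag2 and Dll1 gave 0.42, 0.18 and 0.11 on slide 1 against −0.19, −0.29 and −0.37 on slide 2, and Notch3 gave 0.01 against −0.20.

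KO mice were younger than WT mice on average, and age moved with genotype. With age as a covariate the median difference of the 10 genes was −0.31, next to −0.15 over all features, with Notch2 at −0.50 (limma adjusted p = 0.327) and Jag2 at −0.40 (limma adjusted p = 0.429) the lowest; 0 of 10 were called. The group ages meet only at 18 weeks.

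The rest of the pathway was described through 54 genes in 6 lists by role, of which 51 had a probe and 48 were tested. Limma called 0 of 48 after adjustment over all features; at an unadjusted p under 0.05, 5 were higher and 1 was lower in KO, next to 6.26% and 5.50% of all features. Their median difference was −0.0846, next to −0.0850 over all features, with 30 negative and 18 positive. KO and WT did not overlap for 9 of 48, 6 with KO higher and 3 with KO lower, next to 19.3%, 7.56% and 11.8% of all features, so the total is near the background share. Among the genes not tested, Hes3 and Hey2 were not well above background on any array, Hes5 was so on 1 array of each group, and Dlk2 and Aph1c had no probe that was named here.

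**Figure D3:**
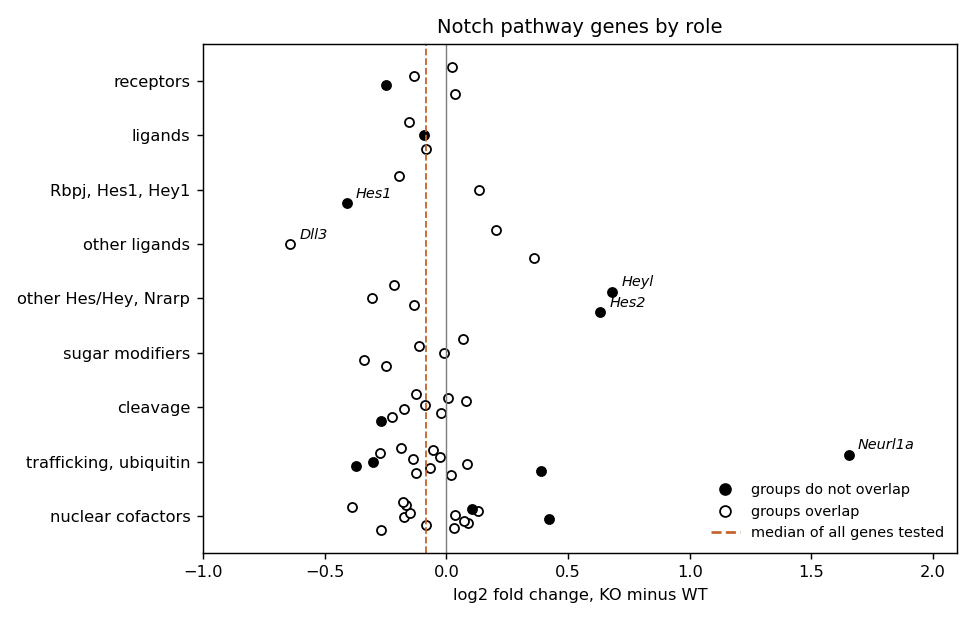
KO minus WT difference (x axis, log2) of the 58 Notch genes tested, by role; filled points have no overlap between groups and the dashed line is the median of all features. Most points lie within 0.4 of 0, and Neurl1a, Heyl and Hes2 are the highest.

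None of the other Hes and Hey targets or the feedback gene Nrarp was called. Of 8 listed, 5 were tested, 2 with positive and 3 with negative differences. Heyl, a target known in vessel wall cells, had WT levels of −2.20, −1.99 and −2.19 and KO levels of −1.73, −1.69 and −0.91, a difference of 0.68 (SE 0.24, limma adjusted p = 0.368). Hes2 stood at −2.41, −3.04 and −2.53 on the WT arrays and −1.91, −2.08 and −2.08 on the KO arrays, a difference of 0.63 (SE 0.19, limma adjusted p = 0.309). In both genes each KO array lay over each WT array, and KO replicate 3 was the highest for Heyl. On slides 1 and 2, Heyl differed by 1.29 and 0.36 and Hes2 by 0.33 and 0.87. Hes7 had a difference of −0.31, with KO replicate 3 inside the WT range. Nrarp, a feedback inhibitor of the pathway, had −0.21, and Hes6 had −0.13.

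Among other ligands, 3 of 4 were tested and all overlapped between groups. Dlk1, a non-canonical ligand, had a difference of 0.36 and Dll4, the endothelial ligand, 0.20. Dll3, a ligand that acts within the cell, had WT levels of −2.99, −2.89 and −2.84 and KO levels of −2.88, −5.00 and −2.77; it was well above background on 2 KO arrays, and its difference was −0.64, with KO replicate 2 far under the other arrays. The sugar modifiers of the receptors were all tested, with 0 of 5 called. Mfng (−0.34) and Lfng (−0.25), which tune the choice between ligands, had the lowest p, and Poglut1 had −0.11.

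Of the proteases that cleave the receptors, 8 of 10 were tested and 0 called. Adam10, the main protease of the first ligand-dependent cleavage, stood at 2.52, 2.73 and 2.67 on the WT arrays and 2.36, 2.29 and 2.47 on the KO arrays. Its groups did not overlap (difference −0.27, SE 0.12, limma adjusted p = 0.437). Adam17, a related protease, had −0.22 and Aph1b, a subunit of gamma-secretase, −0.17.

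The trafficking and ubiquitin genes, all 13 tested, held the largest difference of the pathway. Neurl1a, a ubiquitin ligase that acts on ligands, had WT levels of 3.18, 1.43 and 1.69 and KO levels of 3.41, 4.26 and 3.60. All KO arrays were higher than all WT arrays, but WT replicate 1 lay within 0.23 of KO replicate 1. The difference was 1.65 (SE 0.48, 3.15-fold, limma adjusted p = 0.309), and a second probe gave 1.61. Within slides it was 0.42 (slide 1) and 1.85 (slide 2), and a fit blocked on slide gave 1.23 (limma adjusted p = 0.560). Without WT replicate 1 it was 2.19 and was called (limma adjusted p = 0.0450). Skeletal muscle markers were also higher in WT replicate 1 than in the other WT arrays and higher still in every KO array, with the median over all 12 at 1.21, −0.34 and −0.79 on the WT arrays and 1.78, 2.09 and 1.57 on the KO arrays, and a summed signal of 439 to 1725 times the 75th percentile in WT and 1985 to 2629 times in KO. The part of muscle in the Neurl1a difference was not tested. Dtx4, a Deltex protein that regulates receptors, had −0.37 (SE 0.13, limma adjusted p = 0.367) and Dtx3 had 0.39 (SE 0.15, limma adjusted p = 0.395), both without overlap. Itch, a ligase that targets Notch for breakdown, had −0.30, also without overlap.

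**Figure D4:**
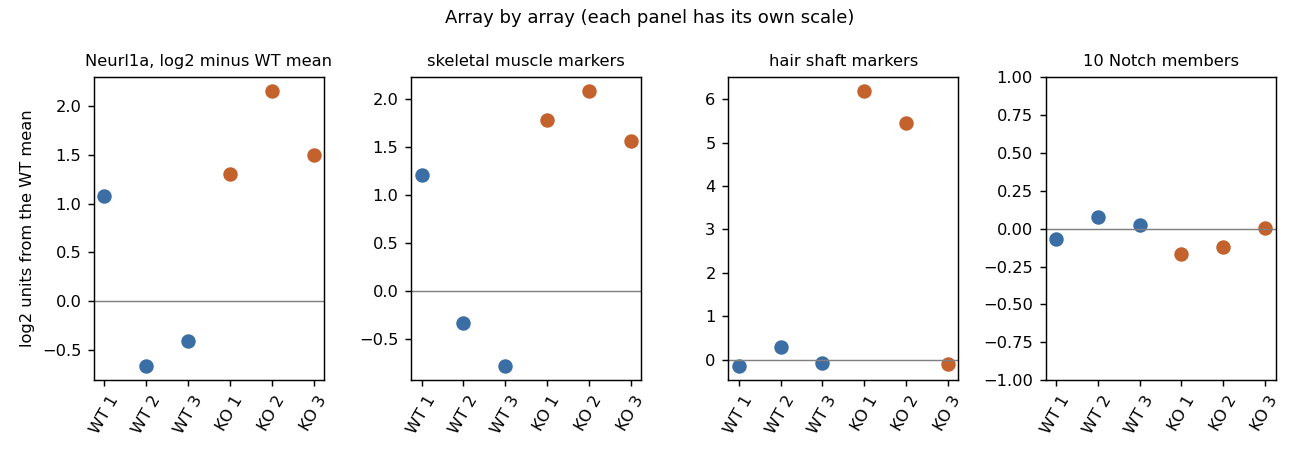
Neurl1a level, the median over skeletal muscle and hair shaft markers, and the median over the 10 Notch genes on each array (y axis, log2 units from the WT mean; the scale differs between panels). Neurl1a and the muscle markers are high in WT replicate 1 and all KO arrays, and hair shaft markers in KO replicates 1 and 2. The median over the 10 Notch genes stays within −0.17 to 0.08, while single genes range more widely. The hair shaft markers include keratins of the inner root sheath.

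Of 14 nuclear cofactors, all tested, 0 were called. Kat2b, an acetyltransferase that works with the Notch complex, was higher on all KO arrays by a mean of 0.42 (SE 0.14, limma adjusted p = 0.360), with WT levels of −0.26, −0.28 and −0.35 and KO levels of 0.09, 0.37 and −0.07. Rbpjl, a relative of Rbpj, had −0.39 and the corepressor partner Cir1 −0.27, both with overlap. Maml1, the coactivator that binds the Rbpj complex, had −0.17.

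Epidermal genes known to be linked to Notch were described alongside. All 8 tested had negative differences, as did 64.1% of all features, and 0 were called (median −0.20, adjusted p from 0.548 to 0.961 in limma). Groups did not overlap for 1 of 8, next to 19.3% of all features. This was the suprabasal keratin Krt10 (−0.13), whose second probe gave −0.02, with the KO arrays inside the WT range. Trp63, the basal factor that opposes Notch, had −0.21 (SE 0.13) and the cornified envelope gene Ivl −0.33 (SE 0.24). Suprabasal markers as a whole (6 tested) had a median of −0.22, and their summed signal was 1605 to 1893 times the 75th percentile in WT and 1497 to 1565 times in KO. The 8 genes include Trp63, Krt1, Krt10 and Ivl, which are also keratinocyte markers, so the lists are not separate evidence.

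Genes with the profile most like each Notch gene over the 6 arrays were looked up. Likeness was taken as the root mean square difference of the 6 levels after centring each gene on its mean, in log2 units, over 14248 other genes with a symbol. For 0 of the 10 was another of the 10 the nearest gene, and between 2.57% (Hey1) and 18.1% (Dll1) of genes lay nearer than the nearest Notch gene. The other Notch genes are few among the 14248, so the 0 was nearly fixed in advance. No share for lists of other genes was computed, so neither value tells whether Notch genes resemble each other. Hes1 was nearest to Cables1 and Dapk2 (both 0.048), Notch1 to Slc26a7 (0.074) and Slc8a3 (0.081), and Hey1 to Phtf1os (0.067) and Itga8 (0.082). Notch2 was nearest to Strn and Mansc1, Notch3 to Bcl2l1 and Eif4ebp3, Notch4 to Mcph1 and Cant1, Jag1 to Ppp1r12c and Glyr1, Jag2 to Casz1 and Gtf3c6, Dll1 to Npepps, and Rbpj to Snx9 and Slc46a3, at distances of 0.019 to 0.058. With 6 arrays these neighbours are a description of the arrays.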

How the data were processed

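Spot intensity values were deposited as scanner output (software Agilent Feature Extraction 11.5.1.1, per the file headers). Deposited flags of another kind mark outliers and spots well above background, per the file headers. The authors also deposited a log2 value table; per its headings, each WT column followed the KO array of the same number and the reverse (correlations 0.942 to 0.964 over 27351 probes; −0.594 to −0.216 with its own heading), so the scanner files, recorded per sample, were used. The tested value was log2 processed signal, scaled by subtracting the 75th percentile of non-control probes of that array, spots averaged without outliers (31 of 55681 probes lost). Accessions were matched without versions to RefSeq (GRCm38.p6), which named 27503 probes and left 28178 unnamed; the array grid refers to mm9, and no array coordinates were used. The planned normexp alternatives used the median signal, since the files have no mean signal column.

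A probe was kept where every array of WT, or of KO, had it well above background, with the brightest per gene. The group test was limma (version 3.58.1, R version 4.3.3; lmFit, eBayes, two-sided, Benjamini-Hochberg, threshold 0.05), tested on simulated data; exact permutation tests covered single genes. Named were all members, Sox4, the 3 smallest p per list, and further genes (Hes6, Nrarp, Itch, Maml1, Krt10) chosen after their values were seen. Some genes that the rule names are not reported here. Members and lists were chosen with earlier results of these data known. Alternatives covered normalization, filters, probe choice, slide, age and each left-out array.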

Additional observations from a re-analysis of the deposited data

How the results depend on the processing

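With each of 16 other settings, limma called 0 of the 10 Notch genes. Over those settings 149 single-gene values kept their direction and 11 did not. Notch2, Notch3, Jag1, Jag2, Rbpj and Hes1 kept theirs in every one. Without a filter, with probes above background on all arrays and with the replicate block, the 10 differences were identical to the main fit. The mean of kept probes changed only Notch1 and Rbpj. Such unchanged values count among the 149 and say nothing about whether a direction holds. Notch1 turned to −0.00593 with normexp and the 75th percentile and to −0.0274 with slide as a block, and with age as a covariate Hey1 turned to −0.33 and Notch4 to −0.33. With 1 array left out, Notch1 ran from −0.11 to 0.29, Notch4 from −0.18 to 0.20, Hey1 from −0.0482 to 0.27 and Dll1 from −0.15 to 0.0398. Without KO replicates 1 and 2, chosen after seeing the data, Dll1 was 0.0310, Jag2 0.0311 and Rbpj 0.000540, the median of the 10 was 0.00692, that of the other pathway genes −0.0364, and Sox4 was −3.66 and no longer called (adjusted p = 0.145), with 0 features called in all; the lone KO array is then assumed to vary like WT. With age as a covariate the medians were −0.31 and −0.14. With 1 array left out they ran from −0.17 to −0.08 and from −0.12 to −0.06, Sox4 from −3.66 to −3.49, and 0 to 1 other pathway genes were called (Neurl1a without WT replicate 1, at 2.19).

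The count of all features called, 5, was 8 with normexp and quantile normalization, 8 with normexp and the 75th percentile, 15 with the array median, 2 without a filter, 9 with probes above background on all arrays, 1 with slide as a block, 15 with slide as a random block and 141 with age. It ran from 2 (WT replicate 2, WT replicate 3 or KO replicate 2 left out) to 303 (WT replicate 1 left out), with 88 without KO replicate 3. Same-numbered WT and KO arrays had correlations of −0.13, −0.04 and 0.08 between their deviations from the group means. WT replicate 1 and KO replicate 3, which shared slide 1, had −0.0029. On slide 2, KO replicate 1 had 0.13 with WT replicate 2 and 0.008 with WT replicate 3. The check therefore cannot tell whether same-numbered arrays were processed together. With the replicate block the count was 0, the Notch genes called were 0, their median was −0.11 and Sox4 was −3.56 (adjusted p = 0.103), and Cd3g was not called either. The main probes of the 10 genes were above background on every array, which does not show that background handling leaves their differences unchanged. With normexp and the 75th percentile the median of the 10 was −0.08, next to −0.11 in the main fit. Sox4 was then −2.61, next to −3.56.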
